A study of Mus musculus with 48 samples.

Results

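The 10 RNAs described here are transcribed from the mitochondrial genome: the rRNAs mt-Rnr1 and mt-Rnr2 and the 8 mRNAs mt-Nd1, mt-Nd2, mt-Nd4, mt-Nd5, mt-Cytb, mt-Co1, mt-Co2 and mt-Co3. They were taken by Ensembl identifier from a table of raw counts for 20171 genes, and all 10 were present and passed the low-count filter in each of the 12 comparisons. RNA immunoprecipitation with sequencing (RIP-seq) was carried out in mouse embryonic stem cells to find the RNAs held by Tnrc6a, a GW182 protein. RNA was sequenced from the lysate (input) and from what HA-antibody beads recovered from it (IP). The groups were untagged cells, cells with an HA-AVI tag on the endogenous Tnrc6a gene (HA-Tnrc6a), tagged Ago2-/- cells, and tagged cells labelled as Upf1 knockout. All of them carry a GFP reporter with Trim71 binding sites, GFP_5xT71BS, and the parental line also has a stably transfected Cas9 transgene. Each of the 8 combinations of genotype and fraction held 6 libraries, grown as triplicate dishes. The number of clones behind a genotype is not stated, so the replicates measure the spread between dishes.

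GW182 proteins act in the cytoplasm, where they join Argonaute proteins on target mRNAs to the enzymes that remove poly(A) tails. Mitochondrial RNAs are made and translated inside the organelle, from long transcripts of either DNA strand that are cut at the tRNAs between the genes. They are therefore a comparison for RNA that reaches the beads from a compartment in which GW182 proteins are not known to act. The rRNAs build the mitochondrial ribosome. The mRNAs encode membrane subunits of the respiratory chain: NADH dehydrogenase (complex I), the cytochrome bc1 complex (complex III) and cytochrome c oxidase (complex IV).

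Positions are those of RefSeq GRCm38.p6 on chromosome MT, and the gene lengths there equal those in the table. mt-Rnr1 (ENSMUSG00000064337), the rRNA of the small mitochondrial ribosomal subunit, lies at 70 to 1024. mt-Rnr2 (ENSMUSG00000064339), that of the large subunit, lies at 1094 to 2675. The complex I genes are mt-Nd1 (ENSMUSG00000064341) at 2751 to 3707, mt-Nd2 (ENSMUSG00000064345) at 3914 to 4951, mt-Nd4 (ENSMUSG00000064363) at 10167 to 11544 and mt-Nd5 (ENSMUSG00000064367) at 11742 to 13565. The complex III gene mt-Cytb (ENSMUSG00000064370) is at 14145 to 15288. The complex IV genes are mt-Co1 (ENSMUSG00000064351) at 5328 to 6872, mt-Co2 (ENSMUSG00000064354) at 7013 to 7696 and mt-Co3 (ENSMUSG00000064358) at 8607 to 9390. None of these genes has an intron, so all counts are exonic. The start of mt-Nd4 overlaps mt-Nd4l (9877 to 10173), and the end of mt-Nd5 overlaps mt-Nd6 (13552 to 14070), which is read from the opposite strand. Whether counting used strand is not given in the sources used here, so mt-Nd5 and mt-Nd6 cannot be fully separated.

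Levels are given in CPM, counts scaled to library size with TMM factors over all 48 libraries. Library totals were 15383953 to 19595405 for inputs and 11471544 to 18344233 for IPs in the columns numbered 1 to 3, and 26458831 to 37179105 and 25724085 to 73845953 in columns 4 to 6. The lowest count of any of the 10 RNAs was 247 (mt-Rnr1, HA-Tnrc6a IP library 1), so counting error was small beside the spread of replicates. The labels name 2 experiments with 3 libraries per group, but the column headers do not. The 2 number sets were therefore fitted with terms of their own and averaged, and values from each set are given where they differ. Tnrc6a mRNA was at 7686 to 58807 CPM in tagged IPs and 56.6 to 104.9 in untagged IPs. Ago2 mRNA in inputs was at 92.8 to 135.6 CPM in Ago2 knockout cells and 205 to 323 in HA-Tnrc6a cells. Upf1 mRNA was higher, not lower, in inputs of the cells labelled Upf1 knockout (122 to 142 CPM against 74.4 to 99.6), so the label was not checked by its mRNA. All 9 embryonic stem cell markers were present in inputs (summed 7247 to 8737 CPM), against 20.5 to 36.7 CPM for the 3 of 5 feeder markers in the table, 4.52 to 41.3 for 3 endoderm markers and 5.42 to 24.7 for 2 neural markers. Among inputs, HA-Tnrc6a library 3 and untagged library 1 stood apart from the libraries of their own set. Their chi-square per degree of freedom over genes was 27.0 or more and 8.83 or more, against 2.59 and 1.93 for the other pair of the set. Among IPs, pairs of a set ran from 4.516 to 34.05. IP library 4 labelled Upf1 knockout had 24.85 and 34.05 against 4.516 for the other pair. HA-Tnrc6a IP library 4 had 21.28 and 17.84 against 7.465. These IPs were left out only 1 at a time.

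The 10 RNAs made up a small share of each library, and a smaller one after the beads. In inputs the share of counts was 1.40% ± 0.16 in untagged cells, 1.72% ± 0.086 in HA-Tnrc6a cells, 1.68% ± 0.11 without Ago2 and 1.44% ± 0.077 in the Upf1-labelled group (SD, n = 6). In IPs it was 0.940% ± 0.068, 0.509% ± 0.076, 0.348% ± 0.047 and 0.356% ± 0.043 in the same order. Every IP library had a smaller share than every input library, and every tagged IP a smaller share than every untagged IP. The rRNAs gave little of this, at most 0.0463% in a group mean (inputs of cells labelled Upf1 knockout). Shares and CPM are parts of a whole: less mitochondrial RNA on the beads and more of other RNA cannot be told apart.

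**Figure D1:**
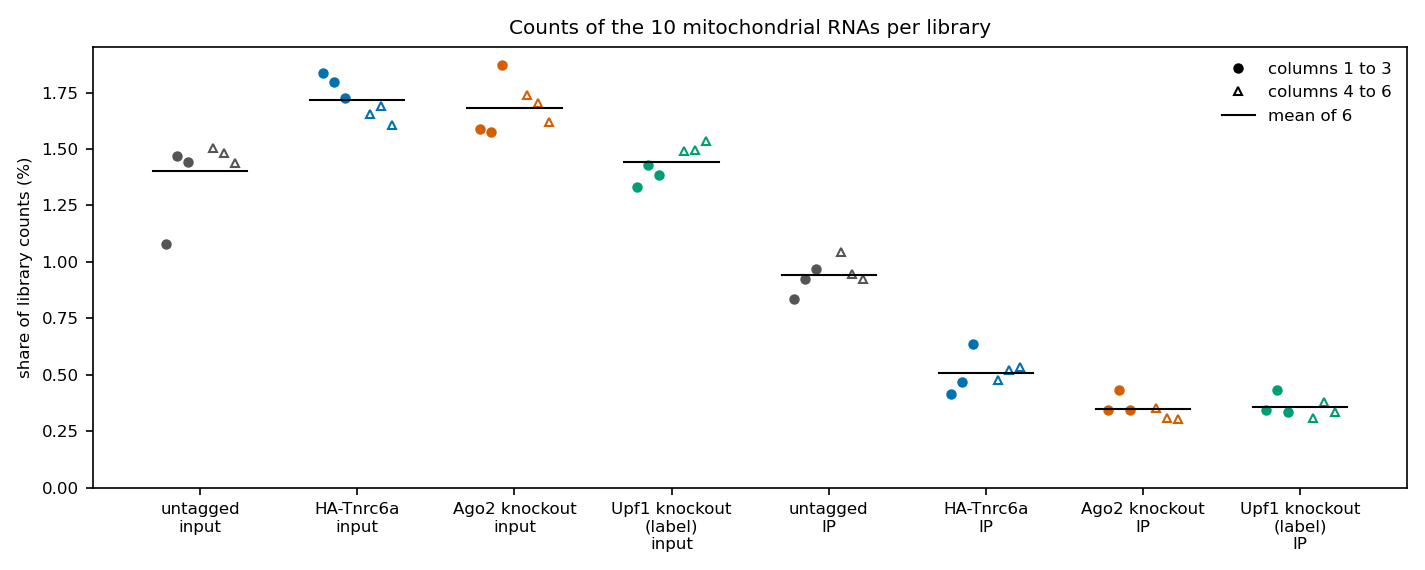
Share of each library's counts from the 10 mitochondrial RNAs, in percent, for the 8 groups of 6 libraries. Filled circles are columns 1 to 3, open triangles columns 4 to 6, and bars the group mean. Inputs lie between 1.08% and 1.87%, untagged IPs between 0.834% and 1.04% and tagged IPs between 0.306% and 0.636%.

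Per kilobase of gene length, mt-Co1, the catalytic core of cytochrome c oxidase, was the most abundant of the 10 in all 8 groups, at a mean of 3784 to 4447 CPM per kilobase in inputs. In untagged inputs mt-Co3 (2258 ± 168), mt-Cytb (1791 ± 257) and mt-Nd1 (1333 ± 530; SD, n = 6) followed, then mt-Co2 (750.1 ± 133) and mt-Nd4 (402.5 ± 74.7). The spreads of mt-Cytb and mt-Nd1 overlapped, as did those of mt-Nd2 (198.4 ± 52.6) and mt-Nd5 (194.6 ± 70.8), so their order is not set. Single libraries of mt-Nd1 (634 to 1955) and mt-Co2 (599 to 938) overlapped too. The rRNAs had the lowest means, mt-Rnr1 at 131.4 ± 50.1 and mt-Rnr2 at 73.6 ± 36.8 CPM per kilobase. Their libraries (79.4 to 181 and 36.8 to 116) overlapped those of mt-Nd2 (101 to 251) and mt-Nd5 (64.6 to 250). In inputs labelled Upf1 knockout mt-Rnr1 ranked 7. Whether rRNA was depleted before sequencing is not given in the sources used here, so rRNA levels may not be those in the cells. mt-Nd1 ranked 4 in untagged, HA-Tnrc6a and Ago2 knockout inputs and 2 in all 4 IP groups. In untagged IPs it was at 1468 ± 134 CPM per kilobase against 1239 ± 322 for mt-Co3, and in Ago2 knockout IPs at 602.6 ± 43.9 against 379.2 ± 159. The 2 genes overlapped in both IP groups, so their order is not set there either.

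Counts of several members cannot be separated from those of nuclear copies of mitochondrial DNA. The table lists Gm28661 at 0.950 to 1.02 times the count of mt-Co2 in every library, and Gm28437 at 0.980 to 1.05 times that of mt-Co3. For mt-Co1 the copies Gm29216 and Gm13340 held 0.149 to 0.226 and 0.0266 to 0.0340 times its count, and for mt-Nd4 the copy Gm28439 held 0.202 to 0.297 times. Levels of mt-Co2, mt-Co3, mt-Co1 and mt-Nd4 are therefore uncertain. With the counts of each copy added to its gene, the number of the 10 RNAs that passed the test moved by at most 1 in the 12 comparisons.

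**Figure D2:**
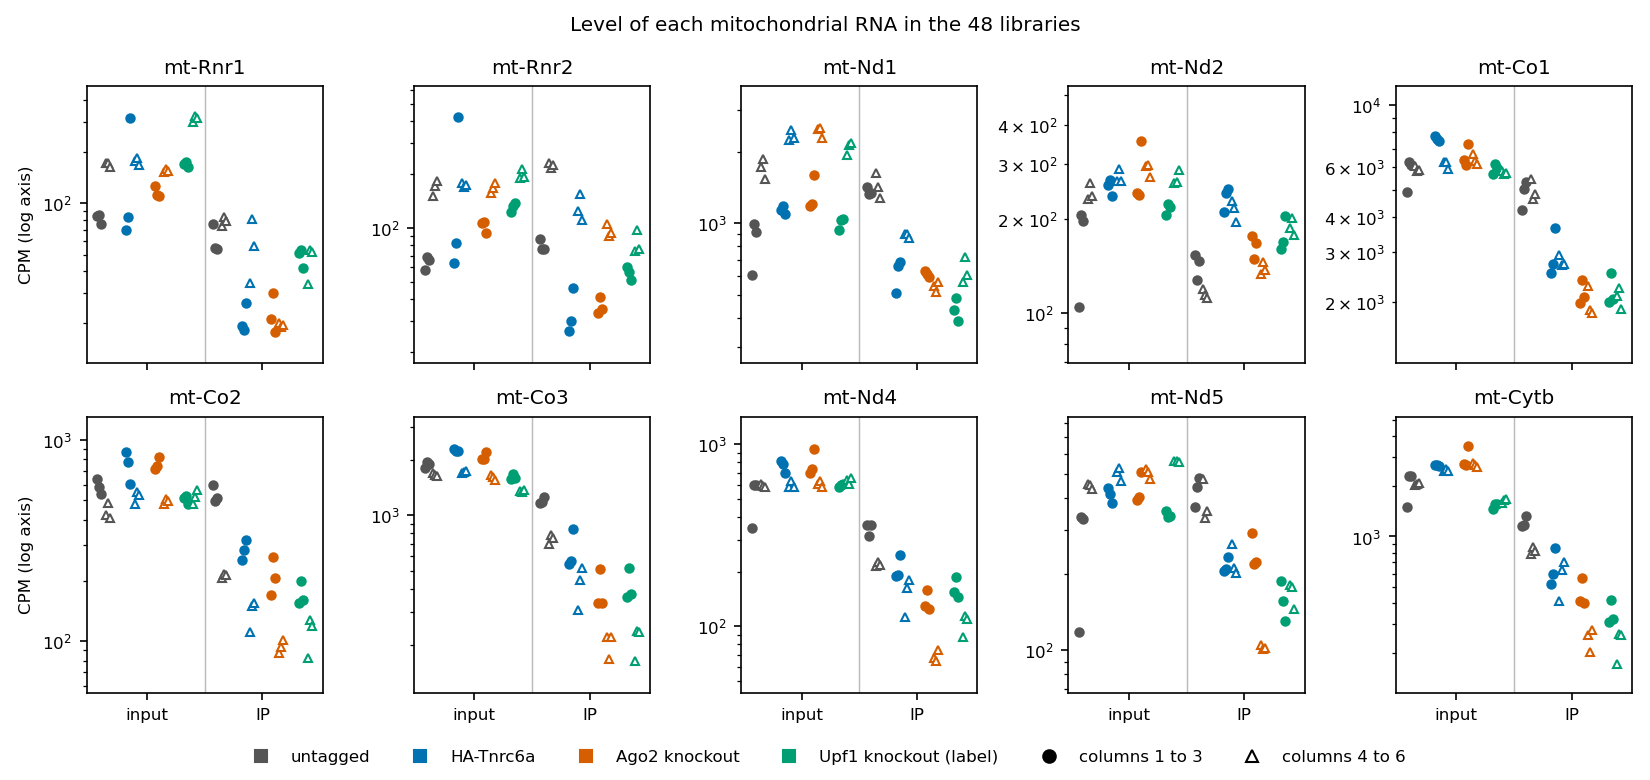
CPM of each of the 10 RNAs in all 48 libraries, on a log axis that differs between panels, with inputs left and IPs right of the grey line. Colours are genotypes, filled circles columns 1 to 3 and open triangles columns 4 to 6. mt-Cytb and mt-Nd4 fall from input to IP in every genotype, while the median of mt-Nd2 among IPs is lowest in untagged cells (124 CPM).

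Untagged cells show what the beads held without a tag, and most mitochondrial mRNAs were already under-represented there. mt-Cytb, the mitochondrially encoded subunit of complex III, had a lowest, median and highest level of 1495, 2082 and 2304 CPM in untagged inputs and 786, 1010.2 and 1331 in untagged IPs. The groups did not overlap. mt-Cytb fell by 1.04 ± 0.09 on the log2 scale from input to IP (± SE, adjusted p = 1.3e-06, edgeR quasi-likelihood test with Benjamini-Hochberg adjustment). mt-Co3, a core subunit of complex IV, went from 1632, 1745 and 1948 CPM to 699, 975 and 1250.0, again without overlap, and fell by 0.91 ± 0.04 (adjusted p = 1.06e-12). The other 8 RNAs overlapped between fractions over all 6 libraries. Of all genes, 2.83% had every IP below every input.

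In all, 7 of the 10 RNAs were lower and 1 was higher in untagged IP than input, where 35.7% of all genes tested passed (17.8% lower, 18.0% higher). Their median log2 change was -0.63, that of all genes -0.03. Beside mt-Cytb and mt-Co3, those that fell were mt-Nd4 (-1.02 ± 0.12), mt-Rnr1 (-0.76 ± 0.07), mt-Nd2 (-0.66 ± 0.15), mt-Co2 (-0.60 ± 0.06) and mt-Co1 (-0.26 ± 0.06). mt-Rnr2 rose by 0.36 ± 0.06 (adjusted p = 5.99e-05), although both rRNAs belong to the same ribosome. mt-Nd1 (0.22 ± 0.11, adjusted p = 0.164) and mt-Nd5 (0.25 ± 0.25, adjusted p = 0.486), membrane subunits of complex I, did not pass. In columns 1 to 3 fitted alone 3 of the 10 passed, where genes called over the whole table fell from 6892 to 1972. For mt-Nd2 the fit with the column number as a block ended the call (-0.64, adjusted p = 0.0602). The mt-Rnr2 call was lost in columns 1 to 3 alone (0.31, adjusted p = 0.0643) and with all 48 libraries in 1 fit (0.37, adjusted p = 0.246).

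In untagged cells the level of mt-Rnr2 differed between the number sets in both fractions. Its change from input to IP did not pass the test of a difference between the sets. It was at 58.2, 68.7 and 66.3 CPM in untagged inputs 1 to 3 and 150.5, 171 and 184 in 4 to 6. In untagged IPs it was at 86.6, 76.4 and 76.5 and then 233, 219 and 226 CPM. Every library of columns 4 to 6 was above every library of columns 1 to 3. The share of all genes with such a gap between the sets is not given here. Within either set every IP was above every input, as for 15.9% and 23.0% of all genes.

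In HA-Tnrc6a cells all 10 RNAs were lower in IP than input, where 72.5% of all genes passed (36.7% lower, 35.7% higher). Their median log2 change was -1.55, against -0.07 for all genes. mt-Cytb was at 2454, 2589 and 2686 CPM in inputs (lowest, median, highest) and 412, 615 and 859 in IPs. The 2 fractions lay far apart, and the fall was 2.06 ± 0.14 (adjusted p = 1.82e-08). Every IP was below every input for 7 of the 10 RNAs and 17.0% of all genes. Log2 changes were -1.92 ± 0.10 for mt-Nd4, a complex I subunit, -1.90 ± 0.13 for mt-Co3 and -1.65 ± 0.09 for mt-Co2, the subunit that takes electrons from cytochrome c. mt-Co1 went from 5939, 6847 and 7782 CPM to 2538, 2724 and 3655 and fell by 1.25 ± 0.07, and mt-Nd1 and mt-Nd5 changed by -1.13 ± 0.07 and -1.04 ± 0.06. mt-Nd2 stood out by its small change: it was at 238, 264 and 290.1 CPM in inputs and 195, 223 and 250.2 in IPs, which overlap, and fell by 0.23 ± 0.06 (adjusted p = 0.000677).

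The rRNAs fell as well, with large errors. In HA-Tnrc6a inputs mt-Rnr1 was at 70.2, 83.5 and 315 CPM in libraries 1 to 3 and 178, 183 and 169 in 4 to 6. In the IPs it was at 19.2, 18.2 and 26.0, and then 34.1, 81.1 and 56.6. Within either number set every IP was below every input, as for 32.8% and 35.5% of all genes. Over all 6 the groups overlapped through IP library 5, and mt-Rnr1 fell by 2.25 ± 0.43 (adjusted p = 0.00129). mt-Rnr2 was at 63.7, 82.0 and 419 CPM and then 178, 171 and 174 in inputs, and at 26.3, 29.9 and 45.9 and then 125.4, 156 and 110.3 in IPs. This RNA too was apart within either set, and it fell by 1.44 ± 0.47 (adjusted p = 0.0226). Input library 3 was above the other 5 for both: without it the changes were -1.74 (adjusted p = 0.000144) and -0.75 (adjusted p = 0.000527), and the mt-Rnr2 call was lost without IP library 1 (adjusted p = 0.0563) or 2 (adjusted p = 0.0527).

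In Ago2 knockout cells all 10 RNAs were lower in IP than input, where 74.3% of genes passed (38.3% lower, 36.0% higher), and the median change was -1.92 against -0.06 for all genes. mt-Cytb was at 2607, 2691 and 3461 CPM in inputs and 205, 339 and 567 in IPs. No IP library came near an input, and the log2 change of -3.10 ± 0.11 (adjusted p = 1.01e-11) was the lowest of any of the 10 RNAs in the 4 genotypes. mt-Nd4 (-2.87 ± 0.08), mt-Co3 (-2.74 ± 0.11) and mt-Rnr1 (-2.72 ± 0.08) followed. mt-Nd2 had the smallest fall again, 0.94 ± 0.09 (adjusted p = 6.48e-08), from 239, 285 and 355 CPM to 134, 148 and 177, without overlap. Over all 6 libraries, 9 of the 10 had every IP below every input, the exception being mt-Rnr2, and so had 17.6% of all genes.

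In cells labelled Upf1 knockout the 10 RNAs were again all lower in IP than input, and each had every IP below every input, as had 19.0% of all genes. Of all genes, 75.2% passed (40.7% lower, 34.5% higher), and the median change was -1.70 against -0.12. mt-Cytb went from 1453, 1575 and 1665 CPM to 173, 284 and 419.6 (log2 change -2.49 ± 0.12, adjusted p = 2.15e-09). mt-Rnr1 went from 162.5, 237 and 324 CPM to 34.0, 51.7 and 53.7 (-2.29 ± 0.11), and mt-Rnr2 from 123, 164 and 216 to 51.2, 67.4 and 97.9 (-1.27 ± 0.06). mt-Nd2 fell by 0.42 ± 0.06 (adjusted p = 6.76e-07).

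**Figure D3:**
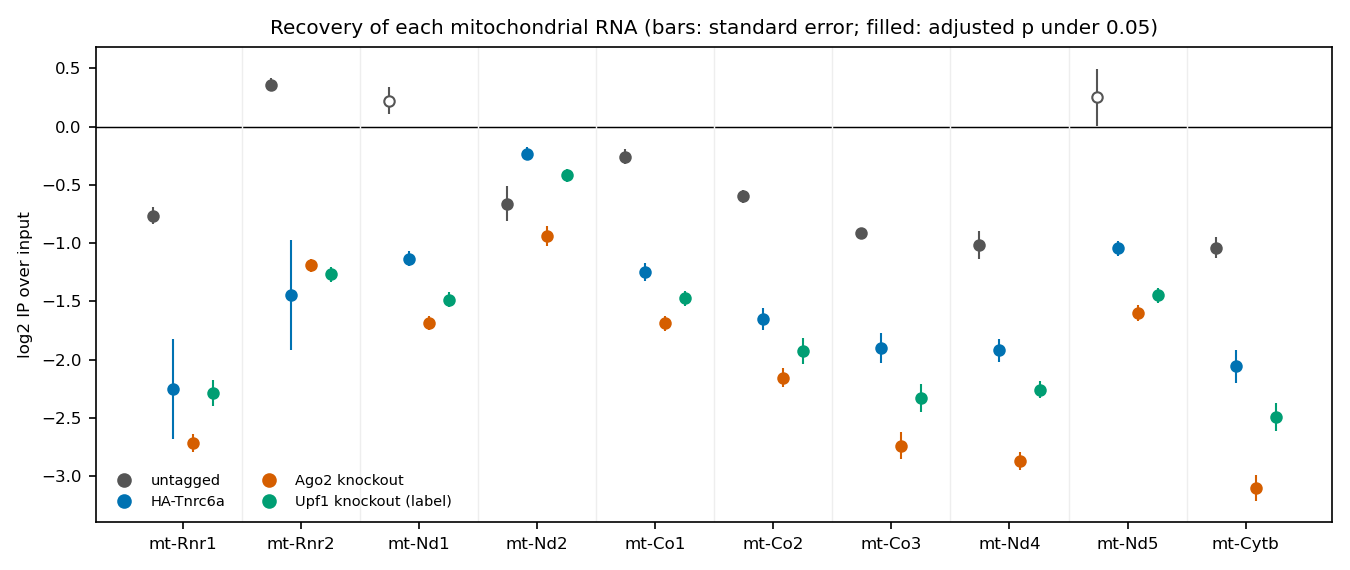
Log2 change from input to IP of each RNA in the 4 genotypes, averaged over the number sets, with standard errors. Filled points passed at an adjusted p under 0.05. mt-Rnr2 in untagged cells is above 0 at 0.36, mt-Nd2 stays nearest 0 in tagged cells, and mt-Cytb in Ago2 knockout cells is lowest at -3.10.

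The test of what the tag changes is the input-to-IP change of a tagged genotype less that of untagged cells. The 3 tagged genotypes share the same untagged libraries, so their values are given side by side and are not independent. In HA-Tnrc6a cells 9 of the 10 RNAs were recovered less than in untagged cells and 1, mt-Nd2, more, where 62.0% of all genes passed (32.2% lower, 29.8% higher). In Ago2 knockout cells 9 were lower and none higher (64.7% of genes passed, 33.2% lower and 31.5% higher), and likewise in cells labelled Upf1 knockout (63.6% of genes, 31.8% in either direction). Medians of the 10 RNAs were -1.03, -1.79 and -1.35, those of all genes -0.10, -0.07 and -0.06. In each of the 3 comparisons the RNA that did not pass as lower was mt-Nd2.

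For the rRNAs the differences from untagged recovery were -1.49 ± 0.43 in HA-Tnrc6a cells, -1.91 ± 0.13 in Ago2 knockout cells and -1.43 ± 0.14 for cells labelled Upf1 knockout for mt-Rnr1. For mt-Rnr2 they were -1.80 ± 0.47, -1.51 ± 0.08 and -1.54 ± 0.09. The HA-Tnrc6a values rest on input library 3 in part: without it they were -0.97 for mt-Rnr1 (adjusted p = 0.00126) and -1.11 for mt-Rnr2 (adjusted p = 1.14e-06). In columns 4 to 6 alone the mt-Rnr1 difference was -0.54 (adjusted p = 0.214).

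Of the complex I mRNAs, mt-Nd1 had differences of -1.35 ± 0.13, -1.86 ± 0.14 and -1.62 ± 0.14 in the 3 tagged genotypes, in the same order. In the IPs alone it was at 1274, 1379 and 1638 CPM in untagged cells (lowest, median, highest) and at 510.4, 778 and 904, 516, 581 and 628, and 388, 525 and 720.4 in the tagged genotypes. No tagged IP reached an untagged one. In the 3 genotypes this held for 3, 7 and 8 of the 10 RNAs and for 14.7%, 18.6% and 19.5% of all genes. Differences were -1.29 ± 0.26, -1.81 ± 0.26 and -1.61 ± 0.26 for mt-Nd5 and -0.90 ± 0.18, -1.81 ± 0.16 and -1.15 ± 0.15 for mt-Nd4.

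mt-Nd2, another complex I subunit, went another way. Its IP levels were 112, 124 and 154 CPM in untagged cells, 195, 223 and 250.2 in HA-Tnrc6a cells, 134, 148 and 177 in Ago2 knockout cells and 160.1, 183 and 204 for cells labelled Upf1 knockout. HA-Tnrc6a IPs and those labelled Upf1 knockout lay above every untagged IP, which no other of the 10 RNAs did. Of all genes, 22.2% and 24.2% did so. Against inputs the difference from untagged recovery was 0.43 ± 0.16 in HA-Tnrc6a cells (adjusted p = 0.0251), -0.23 ± 0.19 in Ago2 knockout cells (adjusted p = 0.285) and 0.33 ± 0.17 for cells labelled Upf1 knockout (adjusted p = 0.0882), the last turning to -0.059 in columns 1 to 3 alone (adjusted p = 0.879). The HA-Tnrc6a call was lost with library totals in place of TMM (0.28, adjusted p = 0.158), with the column number as a block (0.41, adjusted p = 0.104), without HA-Tnrc6a IP library 4 (adjusted p = 0.0512) and in columns 1 to 3 alone (0.20, adjusted p = 0.584). Without untagged input library 1, where mt-Nd2 was at 104.5 CPM against 197 to 260.1 in the other 5, the difference was 0.56 in HA-Tnrc6a cells (adjusted p = 1.18e-07) and 0.48 in cells labelled Upf1 knockout (adjusted p = 3.24e-06). With the IPs compared directly and no inputs, where 35.1%, 38.4% and 37.3% of all genes passed as higher, mt-Nd2 was higher than in untagged IPs in all 3, by 0.82, 0.28 and 0.52 (adjusted p = 1.77e-10, 0.000194 and 3.91e-07).

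mt-Cytb, of complex III, had differences from untagged recovery of -1.01 ± 0.19, -2.02 ± 0.16 and -1.36 ± 0.16. Among the complex IV mRNAs, mt-Co1 had differences of -0.98 ± 0.10, -1.39 ± 0.10 and -1.13 ± 0.09. Its IP levels were 4228, 4924 and 5460.3 CPM in untagged cells, 2538, 2724 and 3655 in HA-Tnrc6a cells, 1825, 2029 and 2382 in Ago2 knockout cells and 1884, 2066 and 2540.0 for cells labelled Upf1 knockout. Every tagged IP lay below every untagged IP, as for 14.7%, 18.6% and 19.5% of all genes in the same order of genotypes. Those of mt-Co2 were -1.05 ± 0.12, -1.51 ± 0.11 and -1.24 ± 0.13, and those of mt-Co3 -0.98 ± 0.14, -1.78 ± 0.12 and -1.33 ± 0.12.

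**Figure D4:**
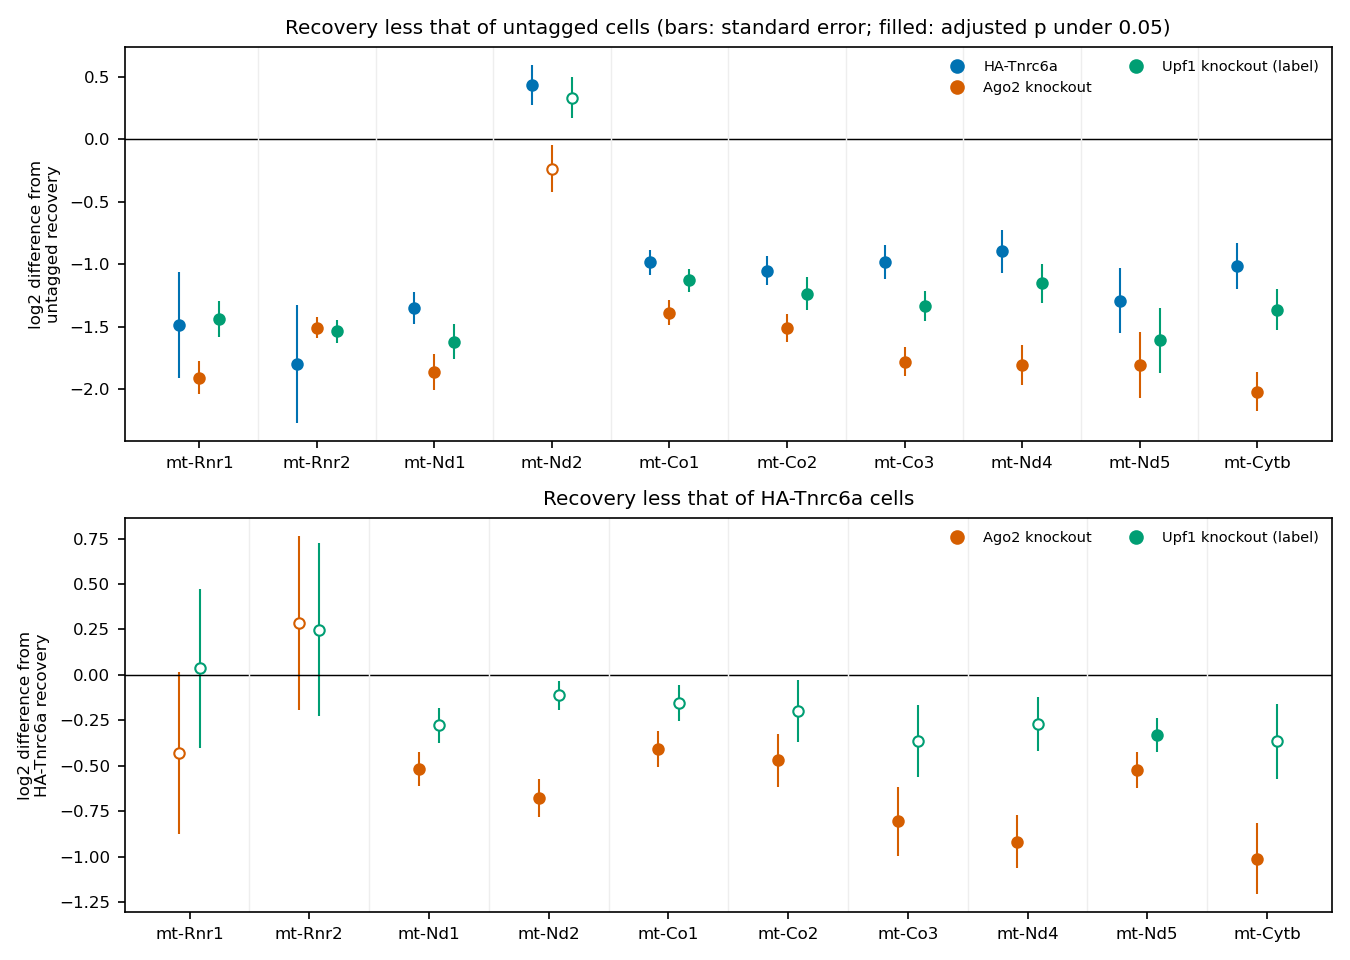
Upper panel, log2 recovery (IP over input) of each RNA in the tagged genotypes less that in untagged cells. Lower panel, recovery in Ago2 knockout and Upf1-labelled cells less that in HA-Tnrc6a cells. Bars are standard errors and filled points passed at an adjusted p under 0.05. mt-Nd2 alone lies above 0 in the upper panel, at 0.43 and 0.33, and in the lower panel the mRNAs of Ago2 knockout cells lie between -1.01 and -0.41.

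Recovery in Ago2 knockout and Upf1-labelled cells was tested against HA-Tnrc6a cells, whose libraries both comparisons share. In Ago2 knockout cells all 8 mRNAs were recovered less than in HA-Tnrc6a cells and neither rRNA passed, where 21.3% of all genes passed (12.3% lower, 9.09% higher). The median difference of the 10 RNAs was -0.52, that of all genes -0.04. The lowest values were those of mt-Cytb (-1.01 ± 0.20, adjusted p = 0.000984), mt-Nd4 (-0.92 ± 0.15, adjusted p = 8.19e-05) and mt-Co3 (-0.80 ± 0.19, adjusted p = 0.00473). mt-Nd2 was next at -0.67 ± 0.10 (adjusted p = 1.35e-05), so that it moved with the other mRNAs here. mt-Nd5 (-0.52 ± 0.10), mt-Nd1 (-0.51 ± 0.09), mt-Co2 (-0.47 ± 0.15) and mt-Co1 (-0.41 ± 0.10) made up the rest. mt-Rnr1 was at -0.43 ± 0.45 (adjusted p = 0.565) and mt-Rnr2 at 0.28 ± 0.48 (adjusted p = 0.743). Without HA-Tnrc6a input library 3, mt-Rnr1 passed at -0.94 (adjusted p = 0.0116) and mt-Rnr2 turned to -0.40 (adjusted p = 0.0905), so neither rRNA has a set direction. In columns 1 to 3 alone mt-Rnr1 turned to 0.51 (adjusted p = 0.79).

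Which calls were made depended on the number set. In IPs of columns 4 to 6, all 10 RNAs lay lower in each Ago2 knockout library than in each HA-Tnrc6a library, as did 24.6% of all genes. In columns 1 to 3 this held for 4 of the 10 and 18.4% of all genes. With that set fitted alone 2 of the 10 passed, mt-Nd2 and mt-Nd4, where genes called over the whole table fell from 4267 to 1623. A test of the difference between the sets passed for 1 of the 10, mt-Nd5: its recovery differed by 0.10 ± 0.14 in columns 1 to 3 and by -1.15 ± 0.14 in columns 4 to 6, which is -1.25 ± 0.20 between the sets (adjusted p = 0.00125). Its IP levels in Ago2 knockout cells were 292, 219 and 223 CPM in libraries 1 to 3 and 104.9, 101 and 102 in 4 to 6, against 201 to 263 in HA-Tnrc6a IPs. The call of mt-Co2 was the least stable, lost with library totals (adjusted p = 0.0783) and without any one of 5 single libraries (HA-Tnrc6a IP 3 or 6, Ago2 knockout IP 3 or 4, Ago2 knockout input 5, adjusted p = 0.0503 to 0.0638).

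In cells labelled Upf1 knockout 1 of the 10 RNAs, mt-Nd5, was recovered less than in HA-Tnrc6a cells (-0.33 ± 0.10, adjusted p = 0.041), where 4.49% of all genes passed (1.57% lower, 2.92% higher). The median difference of the 10 RNAs was -0.23, that of all genes 0.02. That call was lost without any one of 8 single libraries (adjusted p = 0.0579 to 0.0772). The other mRNAs lay between -0.36 and -0.11 and did not pass. mt-Rnr1 was at 0.04 ± 0.44 and mt-Rnr2 at 0.25 ± 0.48, and both turned without HA-Tnrc6a input library 3, to -0.53 (adjusted p = 0.298) and -0.49 (adjusted p = 0.137). When the IPs were compared directly, without inputs, all 8 mRNAs passed as lower, as did 23.6% of all genes (23.2% higher), with values from -1.11 for mt-Cytb (adjusted p = 0.000684) to -0.27 for mt-Nd2 (adjusted p = 0.00419). The level of mt-Cytb in these cells was also lower in the input, as the next comparisons show.

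In bulk lysates, fewer cells of a type and less RNA per cell cannot be told apart. Between HA-Tnrc6a and untagged inputs 3 of the 10 RNAs were higher in HA-Tnrc6a cells, where 15.4% of all genes passed (7.74% higher, 7.67% lower): mt-Co1 (0.23 ± 0.05, adjusted p = 0.00274), mt-Co3 (0.15 ± 0.03, adjusted p = 0.000487) and mt-Nd1 (0.45 ± 0.12, adjusted p = 0.0343). In the main fit, 2 of the 10 RNAs passed in the lower-numbered columns (median 0.50) and 0 in the higher-numbered ones (median 0.11). With the higher-numbered columns fitted alone, mt-Cytb (0.26), mt-Nd2 (0.17) and mt-Nd5 (0.16) passed as higher. There mt-Co1 (0.06) and mt-Co3 (0.05) did not pass. Without the 2 inputs that stand apart, all 8 mRNAs were higher, by 0.13 (mt-Co3) to 0.39 (mt-Co2). The rRNAs were then at -0.01 (mt-Rnr1) and 0.07 (mt-Rnr2). That fit was added after seeing the data, and its share of all genes passing is not given here. The mt-Nd1 call was lost with the column number as a block (adjusted p = 0.0549) and without any one of 8 single libraries (adjusted p = 0.0601 to 0.0780).

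Ago2 knockout inputs differed little from HA-Tnrc6a inputs. None of the 10 RNAs was apart between these groups, where 1.86% of all genes lay lower and 2.77% higher. The test passed for 1 RNA, mt-Co3, lower by 0.10 ± 0.02 (adjusted p = 0.000474), where 30.9% of all genes passed (15.2% lower, 15.7% higher). mt-Cytb was at 0.12 ± 0.06 (adjusted p = 0.175). mt-Rnr1 (-0.31 ± 0.35) and mt-Rnr2 (-0.47 ± 0.43) did not pass. Without HA-Tnrc6a input library 3 both turned to higher and passed, mt-Rnr1 at 0.21 (adjusted p = 0.000457) and mt-Rnr2 at 0.23 (adjusted p = 0.0339). In columns 4 to 6 alone, a set without that library, mt-Rnr1 passed the other way (-0.18, adjusted p = 1.06e-05). Endoderm markers were lower in Ago2 knockout inputs for 3 of 3 genes (Gata6 -3.23, Sox17 -2.98, Gata4 -1.22). The 3 feeder markers in the table were lower too (-1.73 to -0.34), and the 2 neural markers were higher (0.42 and 1.25). Several of these markers were near the floor. Over the 24 inputs, medians were 0.25 CPM for Col1a2, 0.557 for Pax6, 1.77 for Sox17 and 3.09 for Gata6, and the highest was 25.8 for Thy1. Of 9 stem cell markers, 6 were higher and 1 was lower. The part of these markers in the values of the 10 RNAs was not tested.

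Inputs of cells labelled Upf1 knockout had less of 7 of the 8 mRNAs than HA-Tnrc6a inputs, where 58.6% of all genes passed (29.0% lower, 29.5% higher). mt-Cytb changed most: at 1453, 1575 and 1665 CPM it lay below every HA-Tnrc6a input (2454, 2589 and 2686), and it fell by 0.70 ± 0.02 (adjusted p = 1.79e-31). mt-Co3 was at 1339.8, 1477 and 1681 CPM against 1688, 1987 and 2273, also without overlap, and fell by 0.40 ± 0.02 (adjusted p = 1.55e-22). Such a gap was seen for 7.01% of all genes, and one in the other direction for 10.5%. The other 5 lay between -0.28 (mt-Co2) and -0.12 (mt-Nd2), and mt-Nd5 did not pass (-0.05, adjusted p = 0.139). The mt-Co2 call was lost without any one of 8 single libraries (adjusted p = 0.0523 to 0.0635). The lower level held in both sets for mt-Cytb (-0.82 ± 0.03 and -0.59 ± 0.03) and mt-Co3 (-0.48 ± 0.03 and -0.33 ± 0.03). For mt-Nd5 the sets went opposite ways, -0.27 ± 0.04 (adjusted p = 9.74e-07) and 0.17 ± 0.04 (adjusted p = 0.000409). With columns 4 to 6 fitted alone, mt-Nd4 passed as higher (0.093, adjusted p = 0.00981), and mt-Nd2 (0.0003) and mt-Co2 (0.017) did not pass. The calls of mt-Nd2 and mt-Nd4 were also lost with library totals (adjusted p = 0.139 and 0.094) and with all 48 libraries in 1 fit (adjusted p = 0.339 and 0.304).

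Neither rRNA passed in these inputs with all libraries, and the rRNAs were not tested against the mRNAs. mt-Rnr1 was at 170.1, 174 and 162.5 CPM and then 300.2, 324 and 318 in cells labelled Upf1 knockout, against 70.2, 83.5 and 315 and then 178, 183 and 169 in HA-Tnrc6a inputs. Leaving aside HA-Tnrc6a input library 3, every library labelled Upf1 knockout was above every HA-Tnrc6a library of its set. In columns 4 to 6 such a gap was seen for 27.8% of all genes. For columns 1 to 3 without library 3 the share is not given here. The mt-Rnr1 difference was 0.47 ± 0.34 (adjusted p = 0.274) with all libraries and 0.99 without that input (adjusted p = 2.19e-19). For mt-Rnr2 it was -0.17 ± 0.43 (adjusted p = 0.763) and turned to 0.52 without it (adjusted p = 0.000286).

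The number sets were compared by a test of the difference between their changes. It passed for 3 of the 10 RNAs in untagged IP over input (2.86% of all genes), 1 in HA-Tnrc6a cells (7.98%), 7 in Ago2 knockout cells (20.3%) and 4 for cells labelled Upf1 knockout (7.83%). Against untagged recovery it passed for 0 in HA-Tnrc6a cells (0.365%), for 1, mt-Rnr2, in Ago2 knockout cells (6.15%) and for 0 of them in cells labelled Upf1 knockout (1.68%). Against HA-Tnrc6a recovery it passed for 1 in Ago2 knockout cells (0.195%) and 0 for cells labelled Upf1 knockout (0.115%). In inputs it passed for 1 (HA-Tnrc6a against untagged, 3.40%), 0 (Ago2 knockout, 5.94%) and 6 (labelled Upf1 knockout, 11.6%). In Ago2 knockout cells mt-Nd5 had the widest gap, with -0.87 from input to IP in columns 1 to 3 and -2.33 in columns 4 to 6.

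The 10 RNAs did not rise and fall as 1 block over the 48 libraries. The Pearson correlation of log2 CPM between pairs ran from 0.21 (mt-Rnr2 with mt-Nd2) to 0.98 (mt-Co3 with mt-Cytb). All these values share libraries, depth and scaling and are given with no p. By its highest pair mt-Nd2 was the least like the others, with none above 0.61. mt-Rnr2 reached 0.77 with mt-Rnr1, but 0.23 with mt-Co2 and 0.39 with mt-Co3. Among 10826 genes outside the mitochondrial genome with a mean log2 CPM of at least 3, the 5 most like the mean of the 8 mRNAs were the nuclear copies Gm28439 (0.98), Gm10925 (0.98), Gm28437 (0.97) and Gm29216 (0.96), then Ybx1 (0.96), which encodes an RNA-binding protein of the cytoplasm. For the mean of the rRNAs they were Selenot (0.90), Thoc3 (0.90), Gm10052 (0.90), Hnrnpa1l2-ps2 (0.90) and Prpf31 (0.90). Counts of Gm28439, Gm28437 and Gm29216 cannot be separated from those of mt-Nd4, mt-Co3 and mt-Co1. Their correlations are therefore not independent of the 8 mRNAs. Gm10925 was at 0.968 to 1.03 times the count of mt-Atp6.

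Another 16 genes of the mitochondrial genome were in the table, 11 of them tRNAs with low counts. All 16 were lower in IP than input of HA-Tnrc6a cells, from -2.42 (mt-Tg) to -0.44 (mt-Tl1), and so were all 15 tested in Ago2 knockout cells and all 15 in the Upf1-labelled group. Against untagged recovery 11, 13 and 10 of the 16 were lower and none was higher, where 32.2%, 33.2% and 31.8% of all genes were lower. mt-Atp6, an ATP synthase subunit encoded next to mt-Co3, had differences of -1.18 ± 0.22, -1.90 ± 0.19 and -1.27 ± 0.19. mt-Nd6, the mRNA read from the opposite strand, had -1.36 ± 0.11, -1.88 ± 0.17 and -1.71 ± 0.14. In the untagged cells themselves mt-Nd6 (0.35 ± 0.10) and mt-Tl1 (0.80 ± 0.18) rose from input to IP, and 6 of the 16 fell.

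The nuclear genes whose proteins join the mitochondrial ones were set beside them by lists chosen by symbol. Of 65 nuclear genes with symbols of complex I, III and IV subunits, pseudogenes included, 56 were recovered less from HA-Tnrc6a cells than from untagged cells and 1 more, with a median difference of -0.71 (all genes -0.10), where 32.2% of all genes were lower and 29.8% higher. The largest falls were those of Ndufa12 (-1.30), its pseudogene Ndufa12-ps (-1.21) and Ndufc1 (-1.12). Ndufa12 and Ndufc1 encode complex I subunits. In Ago2 knockout cells 61 were lower and 1 higher (median -0.87), and in cells labelled Upf1 knockout 51 were lower and 2 higher (median -0.74). The mRNAs of such subunits are made in the nucleus and translated in the cytoplasm. The medians of the list lay between that of the 10 RNAs and that of all genes. Against HA-Tnrc6a cells, 19 of the 65 were recovered less from Ago2 knockout cells and none more, where 12.3% of all genes were lower and 9.09% higher.

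A list of 82 genes was chosen by symbols of mitochondrial ribosomal proteins (Mrpl or Mrps and a number), and the symbol does not show that each protein belongs to the ribosome. Of these, 53 were recovered less from HA-Tnrc6a than from untagged cells and 19 more (median -0.50), where 32.2% of all genes were lower and 29.8% higher. Mrps36 (-1.22) and Mrpl57 (-1.12) were lowest, and Mrps25 (2.17), Mrpl32 (1.64) and Mrps18b (1.63) highest. Of 40 genes that transcribe, process or translate mitochondrial RNA, 15 were higher and 14 lower (median 0.03), against 29.8% and 32.2% of all genes. Tfb2m, a transcription factor of mitochondrial DNA, was recovered 3.70 ± 0.10 more on the log2 scale, and Fastk, of a family of mitochondrial RNA-binding proteins, 1.11 ± 0.08 more. The 11 table entries for RNAs of other compartments, mostly nuclear, gave 6 lower and none higher (median -1.52), with Malat1, a nuclear long noncoding RNA, at -1.35 ± 0.09. Unlike most of the 10 RNAs, Malat1 rose from input to IP in untagged cells (1.07 ± 0.07).

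**Figure D5:**
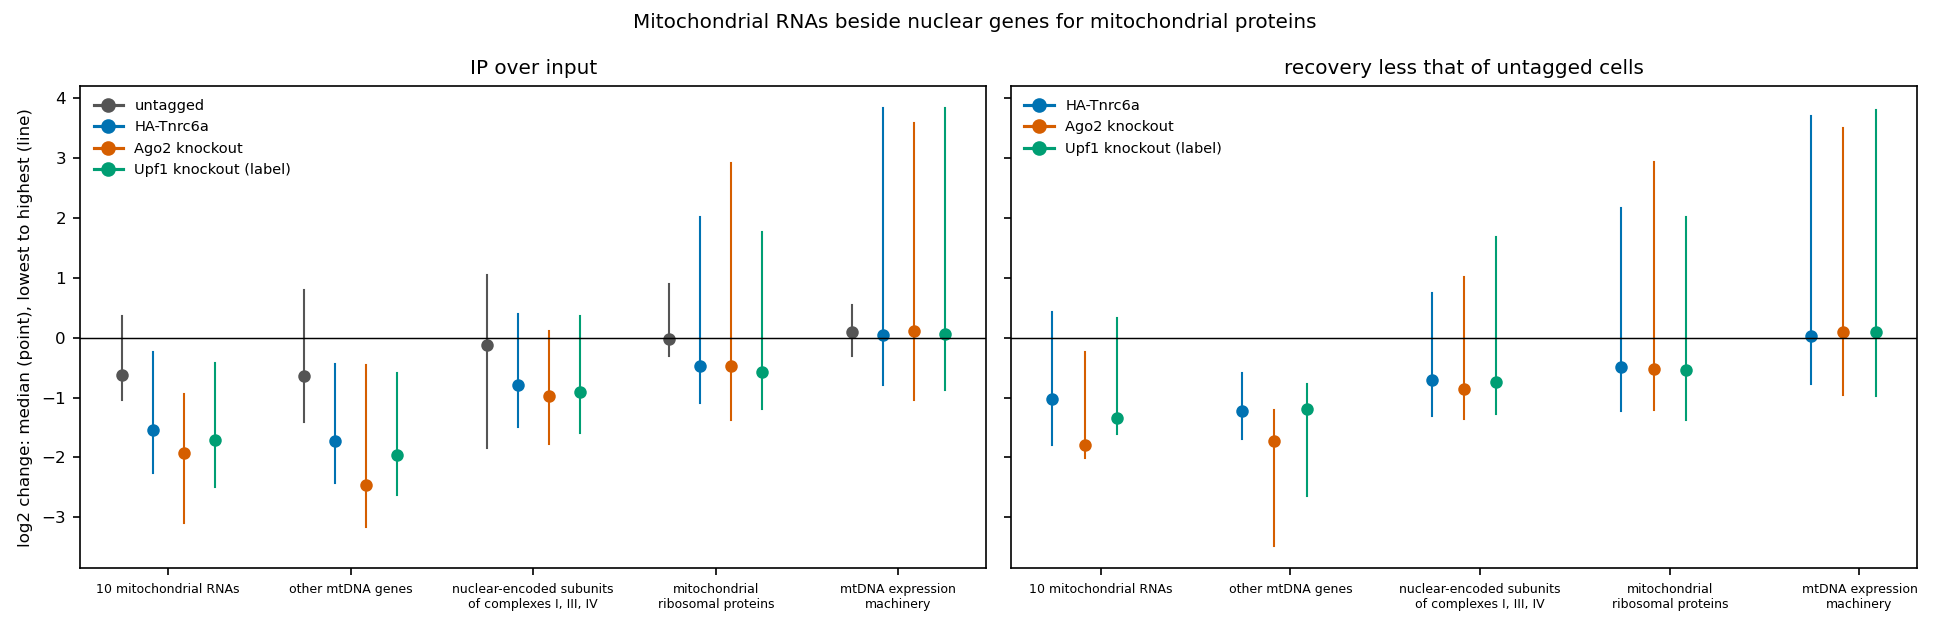
Median (point) and range from lowest to highest (line) of the log2 change of 5 gene groups, left for IP over input and right for recovery less that of untagged cells. Colours are genotypes. The 10 mitochondrial RNAs (medians -1.03 to -1.79 on the right) and the other mitochondrial genes lie lowest, the nuclear-encoded subunits lie between them and 0, and the expression machinery is centred near 0.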

How the data were processed

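The authors deposited 1 table of raw counts per gene and library, whole numbers with no normalization, for 20171 genes and 48 libraries. Per the submitters' processing notes the tools were bcl2fastq 2.20 and STAR 2.7.3a and the builds GRCm38 and mm10. The counting program, its strand setting and the annotation are not given in the sources used here. A further 48 per-sample columns were not used. The kit was a stranded total RNA kit, per the labels' protocols, and beads received equal amounts of protein.

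Counts were tested with edgeR 4.0.16 (limma 3.58.1, R 4.3.3): TMM scaling, filterByExpr with a minimum count of 10, robust quasi-likelihood fit of the groups compared, 1 coefficient per group and number set, contrasts averaged over both sets, two-sided F-test, Benjamini-Hochberg adjustment over all genes tested, threshold 0.05. A standard error is the log2 change divided by the square root of F. Prior count for log2 CPM was 2. The test was checked on simulated counts. The 10 RNAs and the gene lists were chosen with earlier results of these data known. All 10 are named in every comparison, and other genes by rule: called 2-fold changes, up to 3 a direction in a list, the 5 genes most similar over libraries, and all other genes of the mitochondrial genome. Alternatives were RLE and library-total scaling, TMM without mitochondrial genes, no filter, DESeq2 1.42.0, 1 fit of all 48 libraries, either set alone, a replicate block, IPs without inputs and each library left out. Shares of all genes apart between groups used the same filter. Added after seeing the data were fits without the 2 inputs that stand apart and with nuclear copies added. The main fit used no pairing. Input and IP libraries with equal column numbers had a mean correlation of deviations of 0.02. Taken from means of 3 libraries, this cannot exclude pairing. Reads carry no molecular identifiers.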

Additional observations from a re-analysis of the deposited data

Results flagged for a closer look

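Within groups of 6 libraries, a single library lay far from the rest in 10 of 88 sets of values (its gap to the nearest library was over 0.625 of the whole range). The chance rate of about 1 in 20 is for independent sets drawn from 1 distribution. These sets share libraries and mix 2 number sets, so their count cannot be compared with that rate. Untagged input library 1 was low for mt-Co1 (4894 CPM, others 5848 to 6269.7), mt-Nd4 (345 CPM, others 584 to 608), mt-Nd5 (118 CPM, others 331 to 456) and mt-Cytb (1495 CPM, others 2042 to 2304), and for the share of counts of all 10 RNAs (1.08%). HA-Tnrc6a input library 3 was high for mt-Rnr2 (419 CPM, others 63.7 to 178). The remaining ones were mt-Co1 in HA-Tnrc6a IP library 3 (3655 CPM, others 2538 to 2940.0), mt-Cytb in Ago2 knockout input library 3 (3461 CPM, others 2607 to 2756), mt-Rnr1 in Ago2 knockout IP library 2 (30.1 CPM, others 17.6 to 21.1) and the share of counts in 1 Ago2 knockout IP (0.434%).

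The number sets gave different changes in 24 of 120 tests (log2 change in columns 4 to 6 less that in columns 1 to 3, same model, adjusted p under 0.05). From input to IP in untagged cells the differences were -0.70 for mt-Rnr1, -0.93 for mt-Co2 and -0.52 for mt-Co3, and in HA-Tnrc6a cells -0.52 for mt-Nd1. In Ago2 knockout cells they were -0.63 for mt-Rnr1, 0.70 for mt-Rnr2, -1.05 for mt-Nd1, -0.56 for mt-Co2, -0.61 for mt-Nd4, -1.46 for mt-Nd5 and -0.77 for mt-Cytb. In cells labelled Upf1 knockout they were -0.92 for mt-Rnr1, -0.47 for mt-Nd1, -0.69 for mt-Nd4 and -0.56 for mt-Nd5. Of these 15 values, 14 were lower in columns 4 to 6. They share libraries and are not independent. Of all genes that passed this test, 296 were lower and 256 higher in untagged cells, and 930 and 623 in HA-Tnrc6a cells. In Ago2 knockout cells 2374 were lower and 1589 higher, and in cells labelled Upf1 knockout 598 and 902.

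For the differences between genotypes, mt-Rnr2 differed between sets by 0.62 in Ago2 knockout cells against untagged recovery, and mt-Nd5 by -1.25 in Ago2 knockout against HA-Tnrc6a recovery. In inputs the differences were -0.21 for mt-Co3 (HA-Tnrc6a against untagged) and, for cells labelled Upf1 knockout against HA-Tnrc6a, 0.24 for mt-Nd2, 0.27 for mt-Co1, 0.15 for mt-Co3, 0.46 for mt-Nd4, 0.45 for mt-Nd5 and 0.23 for mt-Cytb. What separates the sets was not tested.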

How the results depend on the processing

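Of 3310 values of single RNAs under alternatives, 3177 kept their side of the threshold (31 of them, not called, changed sign), 67 lost a call, 55 gained one and 11 turned where either value was called. In columns 1 to 3 alone, genes called fell from 6892 to 1972 (untagged IP over input) and from 4267 to 1623 (Ago2 knockout against HA-Tnrc6a recovery). The number of the 10 RNAs called went from 8 to 3 and from 8 to 2 there. For Upf1-labelled against HA-Tnrc6a recovery it went from 1 to 2 with library totals, DESeq2, columns 4 to 6 alone or copies added, to 0 with all 48 libraries in 1 fit or columns 1 to 3 alone, and to 8 without inputs. For HA-Tnrc6a against untagged inputs it went from 3 to 5 with DESeq2 and to 8 without the 2 inputs that stand apart. For Ago2 knockout inputs it went from 1 to 0 with all 48 libraries, 2 in columns 1 to 3 and 3 in columns 4 to 6, and for Upf1-labelled inputs from 7 to 4 with library totals or all 48 libraries. Leaving out each library gave 8 to 8 calls (untagged), 9 to 10 (HA-Tnrc6a), 10 to 10 (Ago2 knockout and Upf1-labelled), 9 to 10, 9 to 9 and 9 to 10 (against untagged recovery), 7 to 9 and 0 to 3 (against HA-Tnrc6a recovery), and 2 to 7, 1 to 3 and 6 to 10 (inputs).

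Values that turned where either was called were mt-Nd2 in Ago2 knockout against untagged without inputs (0.28), mt-Nd5 in Ago2 knockout against HA-Tnrc6a recovery in columns 1 to 3 (0.079), and mt-Rnr2 in Upf1-labelled against HA-Tnrc6a recovery in columns 4 to 6 (-0.79). With each library left out, mt-Rnr1 and mt-Rnr2 ran from -0.49 to 0.21 and from -0.67 to 0.23 in Ago2 knockout inputs and mt-Rnr2 from -0.37 to 0.52 in Upf1-labelled inputs, the highest each time without HA-Tnrc6a input library 3. In columns 4 to 6 alone, Upf1-labelled inputs turned for mt-Rnr2 (0.21), mt-Nd2 (0.0003), mt-Co2 (0.017), mt-Nd4 (0.093) and mt-Nd5 (0.17). The 31 uncalled changes of sign included 15 of mt-Rnr1 in Upf1-labelled against HA-Tnrc6a recovery (to -1.08 in columns 4 to 6) and 3 of mt-Rnr2 in Ago2 knockout against HA-Tnrc6a recovery (to -0.40). The causes were not tested.

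Input and IP deviations at equal column numbers had correlations of -0.04 to 0.17, which cannot exclude pairing. The replicate block ended the calls of mt-Nd2 in untagged cells and against untagged recovery in HA-Tnrc6a cells and of mt-Nd1 in HA-Tnrc6a inputs, added mt-Co2 there (0.29), and changed no other call.

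Genes called over the whole table moved by over 1.5 times from 6892 to 1972 (untagged, columns 1 to 3), from 4267 to 1623 (Ago2 knockout against HA-Tnrc6a, columns 1 to 3) or 7482 (no inputs), from 896 to 162, 384 (either set) or 8805 (no inputs) for Upf1-labelled cells, from 2990 to 1937 (1 fit) or 652 (columns 1 to 3) and from 6065 to 3902 or 3382 in inputs. Library totals moved the median of all genes by -0.17 to -0.34 in IP over input and by -0.16, -0.15 and -0.26 against untagged recovery. They moved the share of calls that were higher from 50.3% to 20.9%, 49.3% to 32.4%, 48.5% to 34.5% and 45.9% to 30.6% (IP over input, 4 genotypes), from 50.0% to 36.4% (Upf1-labelled against untagged) and from 65.1% to 22.4% (Upf1-labelled against HA-Tnrc6a), the last also to 52.8% with RLE and to 354 of 737 calls with TMM factors from nuclear genes.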
